A study of Homo sapiens with 12 samples.

Results

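Adenylate kinases exchange phosphate groups between adenine nucleotides and so link the cellular pools of ATP, ADP and AMP. AK1 is the main cytosolic enzyme, AK3 works in the mitochondrial matrix and uses GTP, AK4 is a close relative of AK3 in the same compartment with low catalytic activity, and AK6 is a nuclear member of the family with a role in ribosome assembly. AK4 is known as a gene induced by hypoxia, and AK4P1 is a processed pseudogene, an intronless copy of the AK4 coding sequence elsewhere in the genome. The 5 genes AK1, AK3, AK4, AK4P1 and AK6 were taken by symbol from a table of 58735 features, and all 5 were among the 16946 genes tested. AK4 was chosen by its lower counts after TTK knockdown in both lines, so its knockdown values, and those of its copy AK4P1, are given as a description without a test.

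The cells were SCC-15 and CAL-27, both human oral squamous cell carcinoma lines. The groups were SCC-15 shTTK, SCC-15 shControl, CAL-27 shTTK and CAL-27 shControl, with 3 libraries each, sequenced from poly(A) RNA as stranded paired reads of 150 bases. TTK is the kinase of the spindle assembly checkpoint, and the shTTK cells carried a short hairpin RNA against it. The labels call the control cells shControl but also give them as wild type and untreated, name no hairpin sequence, and do not say whether the 3 libraries of a group were separate cultures. The spread behind every p-value here is that between these samples and may be technical.

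Total counts lay between 16176655 and 18484112 per library. TTK itself averaged 30.1 ± 3.80 CPM in SCC-15 shTTK and 69.9 ± 2.77 CPM in SCC-15 shControl libraries (CPM is the library-scaled read count after TMM normalization; SD, n = 3 each), which left 43.1% of the control level. It averaged 33.9 ± 1.57 CPM in CAL-27 shTTK and 49.4 ± 3.58 CPM in CAL-27 shControl libraries, which left 68.6%. The first library of each SCC-15 group was unlike its replicates: the mean chi-square per gene against libraries 2 and 3 was 3.07 and 3.78 for shTTK library 1 (1.95 for library 2 against 3) and 5.62 and 5.96 for shControl library 1 (1.98 for library 2 against 3). Epithelial markers were abundant as a sum in every library. Single ones were low, such as KRT14 in CAL-27 shControl (3.44 CPM) and KRT6B in SCC-15 shControl libraries (1.27 CPM). Some markers of other cell types were present, mostly in CAL-27. The fibroblast marker COL1A1 averaged 20.1 CPM in SCC-15 shControl and 26.7 CPM in CAL-27 shControl libraries. The summed level of 12 keratinocyte markers was 8943 to 8949 CPM in SCC-15 shTTK against 9186 to 9527 CPM in SCC-15 shControl libraries, and 5361 to 5431 CPM in CAL-27 shTTK against 3128 to 3292 CPM in CAL-27 shControl libraries. Of these 12 genes, 10 rose and 1 fell in CAL-27, while 4 rose and 4 fell in SCC-15. Of all genes tested, 11.6% rose and 15.7% fell in CAL-27, and 13.4% rose and 14.3% fell in SCC-15. The summed level of 6 endothelial markers was 1.75 to 2.36 CPM in SCC-15 shTTK against 1.88 to 2.58 CPM in SCC-15 shControl libraries, and 72.9 to 75.1 CPM in CAL-27 shTTK against 102 to 110 CPM in CAL-27 shControl libraries. CDH5, the endothelial cadherin, made up most of the CAL-27 sum and fell there (71.5 ± 0.569 CPM in shTTK and 104 ± 4.21 CPM in shControl libraries, log2 fold change -0.54 ± 0.053, edgeR adjusted p = 4.94e-14). Of the 3 endothelial markers tested, PECAM1 also fell in CAL-27, and KDR had no counts. The summed level of 8 fibroblast markers was 20.6 to 22.7 CPM in SCC-15 shTTK against 21.1 to 23.0 CPM in SCC-15 shControl libraries, and 41.4 to 42.2 CPM in CAL-27 shTTK against 31.9 to 37.6 CPM in CAL-27 shControl libraries. COL1A1 and LUM rose in CAL-27, 2 of 4 tested, and POSTN had no counts. The summed level of 6 leukocyte markers was 0.335 to 0.864 CPM in SCC-15 shTTK against 0.574 to 0.821 CPM in SCC-15 shControl libraries, and 11.0 to 14.2 CPM in CAL-27 shTTK against 8.24 to 11.9 CPM in CAL-27 shControl libraries. CD14, the 1 leukocyte marker tested, rose in CAL-27. In SCC-15 the lowest edgeR adjusted p among these tested markers of other cell types was 0.248 (LUM). The part of these marker shifts in the results below was not tested.

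The first question was how far AK4 and AK4P1 can be told apart by reads of this length. In GRCh38 with the GENCODE annotation, AK4 (ENSG00000162433.14) lies on chromosome 1, plus strand, from 65147549 to 65232145, and is protein-coding. AK4P1 (ENSG00000263535.2) lies on chromosome 17, plus strand, from 31345519 to 31346190, inside an intron of NF1 on the same strand, and covers 0 bases of NF1 exons. The AK4 transcript ENST00000395334.6 has 6998 bases, of which the coding sequence takes 672 (9.60%). AK4P1 is 672 bases long and matches that coding sequence without gaps at 670 positions (99.7%). The 2 differences, counted from 1 at the first base of the start codon, are C237T and G465A, with the AK4 base first and the AK4P1 base last.

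The sequences around these 2 positions are shown because they are the only places where a read that lies within the coding sequence of AK4 can be separated from AK4P1. The differing base is in capitals, all runs are on the sense strand, and the AK4 runs are joined over an exon boundary. The second pseudogene AK4P3, on chromosome 12 from 31615771 to 31616439 on the minus strand, carries both changes and 3 more (A157G, A294G and T530C). The first set covers coding bases 207 to 267.
AK4: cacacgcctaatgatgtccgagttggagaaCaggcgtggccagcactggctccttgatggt
AK4P1: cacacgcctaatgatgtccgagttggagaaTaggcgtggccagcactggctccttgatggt
AK4P3: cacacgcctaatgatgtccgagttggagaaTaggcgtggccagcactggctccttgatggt
The second set covers coding bases 435 to 495.
AK4: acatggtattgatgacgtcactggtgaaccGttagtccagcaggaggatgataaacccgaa
AK4P1: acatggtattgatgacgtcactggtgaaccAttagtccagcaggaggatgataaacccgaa
AK4P3: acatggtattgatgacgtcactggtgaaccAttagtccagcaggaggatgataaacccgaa
In both windows AK4P1 and AK4P3 read alike, so neither position separates the pseudogenes from each other.

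Every run of 150 bases in each gene was then looked up in the other. Of the 523 such runs in AK4P1, 223 (42.6%) also occur in AK4, so a large minority of the possible single reads from the pseudogene carry no base that tells it from the parent gene. Of the 6849 runs in the AK4 transcript, 223 (3.26%) also occur in AK4P1 and 6626 (96.7%) occur in none of the 6 annotated AK4 pseudogenes. AK4P3 shares 28 runs with AK4, and AK4P2, AK4P4, AK4P5 and AK4P6 share 0. The shared stretches all lie in the coding sequence, at transcript bases 359 to 1030, and most of the transcript lies beyond it. Within the annotated sequences, sharing is therefore a wide limit on the AK4P1 counts and a narrow limit on the AK4 counts. The genome beside the annotated pseudogenes was not searched for further copied sequence. The runs were also taken singly, although the reads were paired. The other coding members cannot be confused with AK4 at this length: the coding sequence of AK3 is identical to it at 64.2% of aligned bases with a longest common run of 22, and no pair of the 4 coding members shares a run of 30 bases (0 found).

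**Figure D1:**
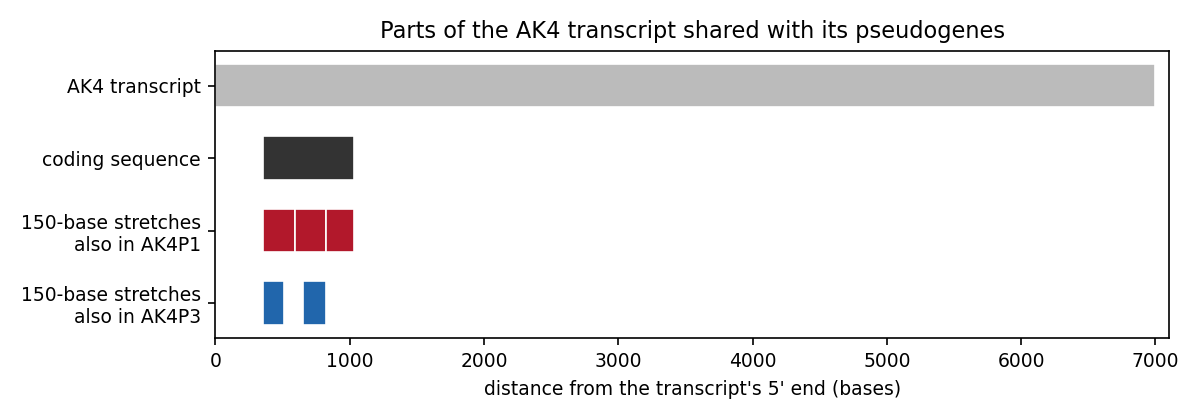
The horizontal axis is the distance in bases from the start of the AK4 transcript (6998 bases), and the bars mark the transcript, its coding sequence, and the stretches covered by runs of 150 bases that also occur in AK4P1 or AK4P3. All stretches shared with these annotated copies lie between bases 359 and 1030, and the white gaps in the AK4P1 row are the 2 differing positions.

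AK4, the matrix enzyme, was lower in the shTTK libraries of both lines. In SCC-15 shTTK libraries it had 28.2, 29.1 and 32.0 CPM, against 73.0, 74.1 and 76.2 CPM in SCC-15 shControl libraries. In CAL-27 shTTK libraries it had 96.5, 97.1 and 95.4 CPM, against 168, 173 and 170 CPM in CAL-27 shControl libraries. All shTTK libraries lay below all shControl libraries of their line, with no overlap, and the replicates were close together. AK4 was chosen for this fall. How many of all genes separate in this way was not counted, here or for the other members. The log2 fold change was -1.32 ± 0.051 (SE) in SCC-15, which left 40.0% of the control level, and -0.82 ± 0.041 in CAL-27, which left 56.6%. AK4 stood at rank 361 from the lowest fold change among the 16946 genes tested in SCC-15 and at rank 428 in CAL-27. In bulk samples, fewer cells that express a gene and less of its RNA per cell cannot be told apart.

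The counts behind these values ranged from 484 to 3153 for AK4 over the 12 libraries, so counting error was small. Without the SCC-15 libraries numbered 1, the log2 fold change of AK4 in SCC-15 was -1.30 ± 0.059. The order of the 4 groups was the same in all libraries. CAL-27 shControl was highest, then CAL-27 shTTK, then SCC-15 shControl, then SCC-15 shTTK, and the ranges of no neighbouring pair overlapped.

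**Figure D2:**
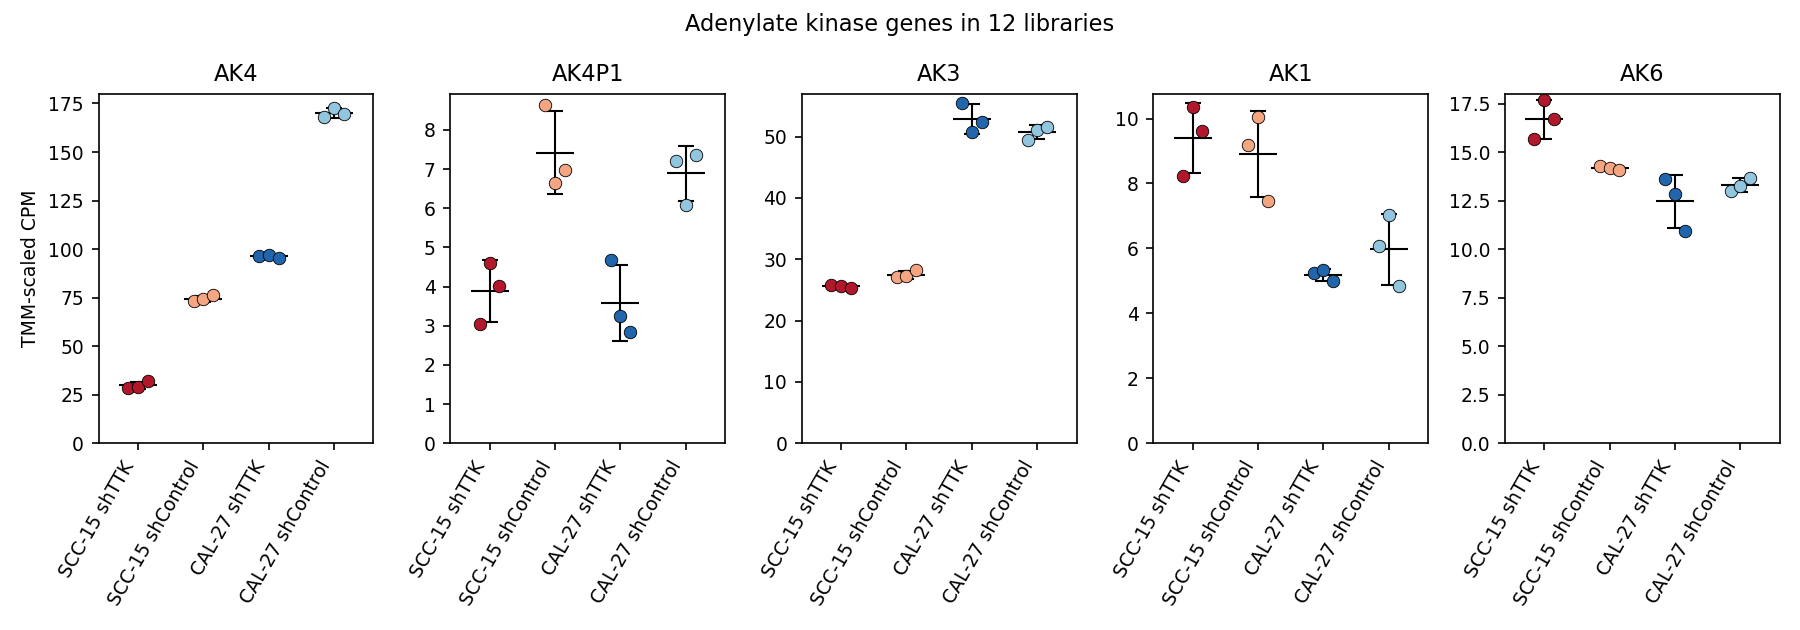
Each panel shows 1 gene with its own vertical axis in TMM-scaled CPM starting at 0, and each point is 1 of 12 libraries in the order 1 to 3 within a group, with the mean and SD as black bars. AK4 forms 4 separate levels from 29.8 CPM in SCC-15 shTTK to 170 CPM in CAL-27 shControl libraries, AK4P1 falls into shTTK and shControl levels that are alike in both lines, and AK3 and AK1 separate mainly by line.

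The fall of AK4 was then compared between lines, a measure that the choice of AK4 did not use directly, although it is made of the same contrasts. The change in SCC-15 minus the change in CAL-27 was -0.50 ± 0.066 on the log2 scale, with an adjusted p of 3.69e-09 in edgeR's quasi-likelihood test (Benjamini-Hochberg over all 16946 genes). AK4 was the only 1 of the 5 members called in this comparison, against 25.4% of all genes (12.1% lower in SCC-15). Without the SCC-15 libraries numbered 1 the difference was -0.47 ± 0.071 (edgeR adjusted p = 2.13e-07). The order of the lines depended on the scale, since AK4 fell by 44.7 CPM in SCC-15 and fell by 73.7 CPM in CAL-27. TTK differed between the lines in the same direction (-0.67 ± 0.093, edgeR adjusted p = 2.37e-08), and the part of this in the AK4 difference was not tested.

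AK4P1, the pseudogene, was counted far more rarely, with 46 to 151 counts per library. In SCC-15 shTTK libraries it had 3.03, 4.61 and 4.02 CPM, against 8.63, 6.66 and 6.98 CPM in SCC-15 shControl libraries. In CAL-27 shTTK libraries it had 4.68, 3.25 and 2.83 CPM, against 7.21, 6.09 and 7.37 CPM in CAL-27 shControl libraries. Again no shTTK library reached the lowest shControl library of its line, but replicates of a group differed more than for AK4. The log2 fold change was -0.93 ± 0.17 in SCC-15 and -0.94 ± 0.18 in CAL-27. The SCC-15 value was -0.66 ± 0.20 without the libraries numbered 1, in which shTTK was the lowest and shControl the highest of their groups.

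AK4P1 moved in the direction of AK4, yet the proportions were not the same in both lines. The difference between its changes in SCC-15 and CAL-27 was 0.0076 ± 0.24 (edgeR adjusted p = 1.00, 95% interval -0.48 to 0.49). Over single left-out libraries it ran from -0.15 to 0.23. The interval ends just short of the AK4 gap of -0.50, so a gap nearly as large lies within it. In SCC-15 shTTK libraries, AK4P1 made up 9.70%, 13.7% and 11.2% of the counts of AK4 and AK4P1 together, against 10.6%, 8.24% and 8.39% in SCC-15 shControl libraries. In CAL-27 shTTK libraries it made up 4.62%, 3.24% and 2.88%, against 4.12%, 3.40% and 4.17% in CAL-27 shControl libraries. The shTTK and shControl ranges overlapped within each line, while the lines were fully apart.

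The mean share was 11.5 ± 2.01% in SCC-15 shTTK, 9.07 ± 1.30% in SCC-15 shControl, 3.58 ± 0.919% in CAL-27 shTTK and 3.89 ± 0.428% in CAL-27 shControl libraries (SD, n = 3 each). SCC-15 exceeded CAL-27 by 6.55 percentage points. An exact permutation test of the line labels within each knockdown state (400 permutations, two-sided) gave p = 0.005, the smallest that they can give. Without the SCC-15 libraries numbered 1 the gap was 6.63 percentage points, again at the smallest p of that exact permutation test (p = 0.01, 100 permutations). The binomial intervals of single libraries, which cover counting error only, ran from 7.33% to 12.5% for SCC-15 shTTK library 1 and from 3.66% to 5.75% for CAL-27 shTTK library 1.

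**Figure D3:**
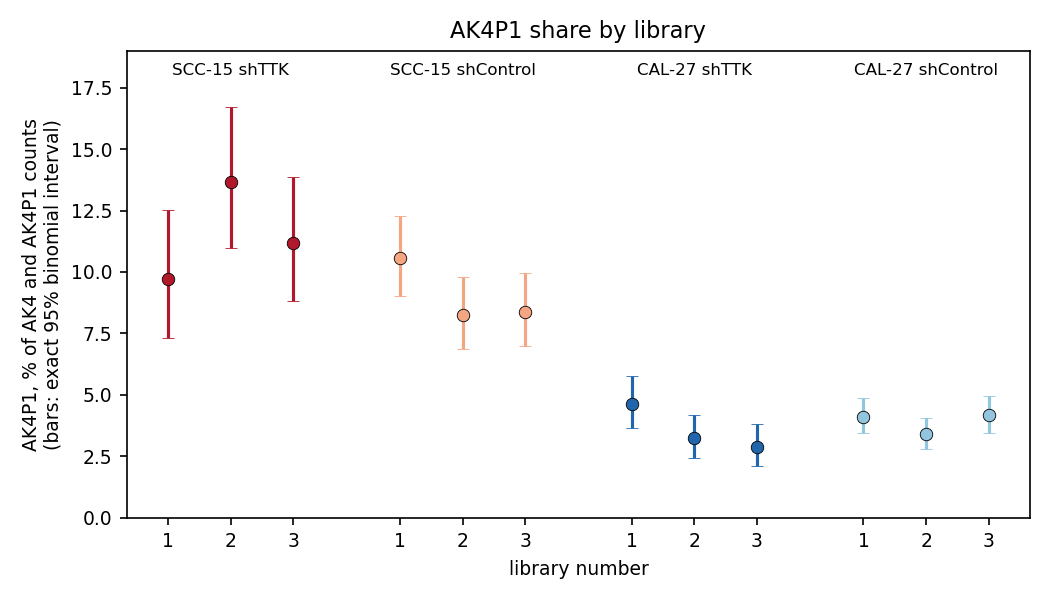
The vertical axis is AK4P1 as a percentage of the summed AK4 and AK4P1 counts, with a point for each of 12 libraries and exact 95% binomial intervals (Clopper-Pearson) as bars. The SCC-15 libraries lie between 8.24% and 13.7%, and all CAL-27 libraries lie lower, between 2.88% and 4.62%.

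The size of the pseudogene signal bears directly on AK4. In SCC-15 mean AK4P1 was lower by an amount equal to 7.91% of the fall in AK4 (-3.53 CPM beside -44.7 CPM). In CAL-27 the amount was 4.47% of the fall in AK4 (-3.30 CPM beside -73.7 CPM). With the counts of both genes added before the fit, the log2 fold change was -1.28 ± 0.049 in SCC-15 and -0.80 ± 0.041 in CAL-27. With AK4P3 added as well it was -1.27 ± 0.049 in SCC-15 and -0.81 ± 0.040 in CAL-27. The fall of AK4 was thus nearly as large with the counts of its copies added. How the authors' counting treated reads that map to several places is not given in the sources used here, so how many of the AK4P1 counts came from AK4 transcripts was not tested.

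Other values around AK4P1 give the setting of its signal. NF1, the RAS GTPase-activating tumour suppressor whose intron holds AK4P1, averaged 224 ± 10.4 CPM in SCC-15 shTTK and 257 ± 7.53 CPM in SCC-15 shControl libraries and fell (log2 fold change -0.20 ± 0.034, edgeR adjusted p = 2.38e-06). It averaged 203 ± 3.50 CPM in CAL-27 shTTK and 181 ± 2.68 CPM in CAL-27 shControl libraries and rose (0.16 ± 0.035, edgeR adjusted p = 1.38e-04). The lower AK4P1 values thus stood beside a fall of the host gene in SCC-15 and beside its rise in CAL-27. The part of NF1 transcription in the AK4P1 counts was not tested. AK4P3, whose 5 differences from AK4 make it the other near-identical copy, had 0.690 ± 0.370 CPM in SCC-15 shTTK against 1.39 ± 0.640 CPM in SCC-15 shControl libraries. In CAL-27 it had 0.872 ± 0.109 CPM in shTTK against 1.83 ± 0.532 CPM in shControl libraries, with 7 to 39 counts in any library. Its log2 fold changes, -1.0 ± 0.39 in SCC-15 and -1.06 ± 0.36 in CAL-27, are given without a test because it shares reads with AK4.

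AK1, AK3 and AK6 were not part of the reason for the choice, and their knockdown contrasts were tested. None of the 3 was called in either line by edgeR (0 of 3 in SCC-15, against 27.7% of all genes, and 0 of 3 in CAL-27, against 27.3%). DESeq2 and limma-voom likewise called 0 of 3 in each line. At an unadjusted p under 0.05 edgeR had 1 of 3 in SCC-15, which was AK6, and 0 of 3 in CAL-27.

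AK3 (ENSG00000147853.16, chromosome 9, minus strand, 4709559 to 4742043) is the closest relative of AK4 among the coding members. It had 25.8, 25.7 and 25.4 CPM in SCC-15 shTTK libraries, against 27.0, 27.2 and 28.3 CPM in SCC-15 shControl libraries. AK3 had 55.5, 50.7 and 52.4 CPM in CAL-27 shTTK libraries, against 49.5, 51.2 and 51.6 CPM in CAL-27 shControl libraries. The SCC-15 groups did not overlap, with shTTK slightly lower, and the CAL-27 groups overlapped. How common such a separation is among all genes was not counted. Its log2 fold change was -0.10 ± 0.068 in SCC-15 (edgeR adjusted p = 0.298, 95% interval -0.24 to 0.035) and 0.06 ± 0.059 in CAL-27 (adjusted p = 0.510, interval -0.057 to 0.18). The CAL-27 value ran from 0.036 to 0.087 over single left-out libraries, the lowest without CAL-27 shControl library 1, and was not called in any of these fits (lowest edgeR adjusted p = 0.347). Both intervals leave out a fall of the size seen for AK4. The ratio of AK4 to AK3, each per kilobase of annotated exon, was 0.688 ± 0.052 in SCC-15 shTTK against 1.60 ± 0.0088 in SCC-15 shControl libraries, and 1.08 ± 0.052 in CAL-27 shTTK against 1.98 ± 0.034 in CAL-27 shControl libraries. By this length AK4 was above AK3 in every group other than SCC-15 shTTK. The order depends on the length used. The annotated exons cover 7578 bases in AK4 and 4483 in AK3, while the transcripts with the longest coding sequence have 6998 and 2736. In plain CPM, mean AK4 was above mean AK3 in SCC-15 shTTK libraries too (29.8 and 25.6 CPM).

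AK6 (ENSG00000085231.13, chromosome 5, minus strand, 69350984 to 69370013) was the nearest of the 3 to the threshold. In SCC-15 shTTK libraries it had 15.7, 17.7 and 16.7 CPM, against 14.3, 14.2 and 14.1 CPM in SCC-15 shControl libraries. In CAL-27 shTTK libraries it had 13.6, 12.8 and 11.0 CPM, against 13.0, 13.3 and 13.7 CPM in CAL-27 shControl libraries. All SCC-15 shTTK libraries were above all SCC-15 shControl libraries, while the CAL-27 groups overlapped. The share of all genes that separate in this way was not counted, so the separation is only a description. The log2 fold change in SCC-15 was 0.24 ± 0.097 and did not pass (edgeR adjusted p = 0.0607, 95% interval 0.042 to 0.43). It passed with RLE size factors (adjusted p = 0.0491), with SCC-15 fitted alone (adjusted p = 0.0440), without SCC-15 shTTK library 1 (adjusted p = 0.0449) and without CAL-27 shTTK library 3 (adjusted p = 0.0483), so the call depends on the setting. With the counts of AK6 and TAF9 summed, the change in SCC-15 was 0.021 ± 0.041 (edgeR adjusted p = 0.770) and the difference between lines was 0.074 ± 0.061 (edgeR adjusted p = 0.422), although TAF9 holds most of those counts. Without both SCC-15 libraries numbered 1 it was 0.28 ± 0.12 (edgeR adjusted p = 0.0818). In CAL-27 it was -0.09 ± 0.10 (edgeR adjusted p = 0.562), and the difference between lines, 0.33 ± 0.14, did not pass (edgeR adjusted p = 0.0781).

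The AK6 locus overlaps that of TAF9, a subunit of the general transcription factor TFIID, on the same strand. Of the 2162 exonic bases of AK6, 530 (24.5%) are also exonic in TAF9, and 210 lie opposite exons of RAD17, a checkpoint clamp loader. TAF9 averaged 105 ± 4.05 CPM in SCC-15 shTTK and 106 ± 0.355 CPM in SCC-15 shControl libraries, with a log2 fold change of -0.02 ± 0.044 (edgeR adjusted p = 0.851). AK6 stood at 15.9 ± 0.857 counts per 100 counts of TAF9 in SCC-15 shTTK and 13.4 ± 0.0791 in SCC-15 shControl libraries. In CAL-27 the figures were 20.5 ± 2.65 in shTTK and 20.9 ± 1.66 in shControl libraries. Which gene received reads from the shared bases is not given in the sources used here, and the AK6 counts are uncertain to that extent.

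AK1 (ENSG00000106992.18, chromosome 9, minus strand, 127866480 to 127877743), the cytosolic enzyme, was the coding member with the lowest CPM in both lines. Its 3 values were 8.22, 10.4 and 9.61 CPM in SCC-15 shTTK libraries, against 9.20, 10.0 and 7.45 CPM in SCC-15 shControl libraries. The CAL-27 shTTK libraries held 5.23, 5.32 and 4.98 CPM of AK1, against 6.06, 7.02 and 4.83 CPM in CAL-27 shControl libraries. The groups overlapped in both lines. The log2 fold change was 0.08 ± 0.14 in SCC-15 (edgeR adjusted p = 0.735) and -0.21 ± 0.16 in CAL-27 (adjusted p = 0.356), with 95% intervals of -0.19 to 0.35 and -0.52 to 0.10. Leaving out CAL-27 shControl library 2 gave -0.059 in CAL-27 and leaving out CAL-27 shControl library 3 gave -0.34, neither of them called (edgeR adjusted p = 0.871 and 0.136). AK1 had 78 to 180 counts per library. AK1 shares 894 of its 2667 exonic bases (33.5%) with a gene of clone name on the same strand.

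**Figure D4:**
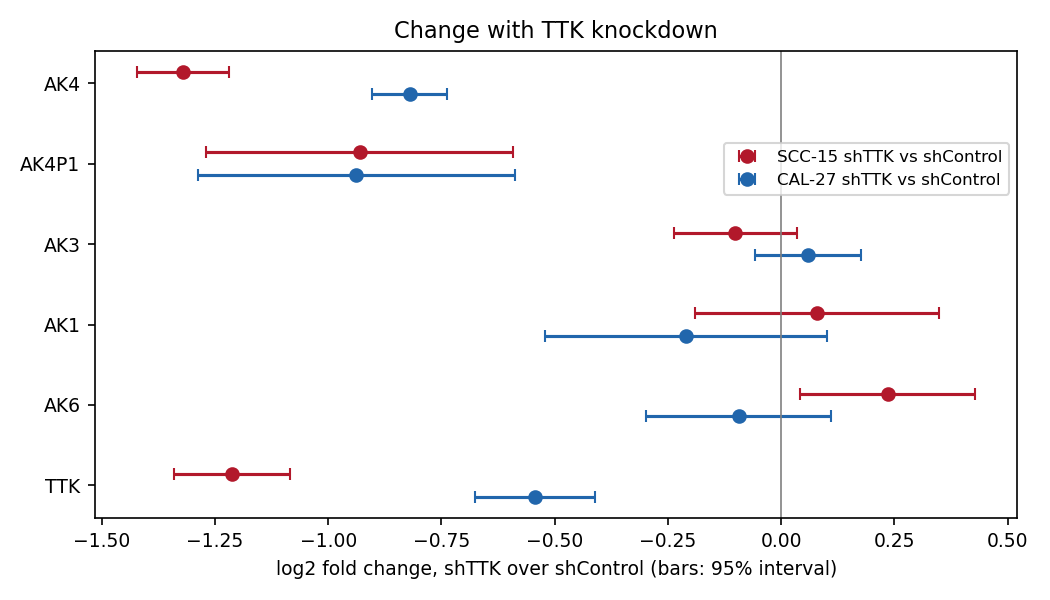
The horizontal axis is the log2 fold change of shTTK over shControl with its 95% interval, in SCC-15 (upper point of each pair) and CAL-27 (lower point), for the 5 members and TTK. The AK4 intervals of the lines do not overlap (-1.32 in SCC-15 and -0.82 in CAL-27), the AK4P1 values nearly coincide, and the intervals of AK3 and AK1 include 0 in both lines. The interval of a single gene is not adjusted over genes, so that of AK6 in SCC-15 leaves out 0 although its adjusted p is 0.0607.

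The lines also differed without knockdown. The rule that chose AK4 did not use this comparison, although its shControl libraries were also the reference for the knockdown contrasts. AK4 averaged 74.4 ± 1.60 CPM in SCC-15 and 170 ± 2.58 CPM in CAL-27 shControl libraries (log2 fold change -1.19 ± 0.042, edgeR adjusted p = 1.19e-39). AK3 averaged 27.5 ± 0.669 CPM in SCC-15 and 50.7 ± 1.12 CPM in CAL-27 (-0.88 ± 0.063, edgeR adjusted p = 1.13e-21). Both matrix enzymes were thus lower in SCC-15. AK1 was higher there, with 8.90 ± 1.32 CPM in SCC-15 and 5.97 ± 1.10 CPM in CAL-27 (0.57 ± 0.14, edgeR adjusted p = 2.87e-04). AK6 (0.09 ± 0.10, edgeR adjusted p = 0.408) and AK4P1 (0.11 ± 0.16, edgeR adjusted p = 0.529) did not pass. These 3 of 5 called members (2 lower and 1 higher in SCC-15) stand against 76.0% of all genes called between the control lines (38.2% lower and 37.8% higher), so the count is near the background. AK4 and AK4P1 thus did not scale together across the lines.

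Levels of different genes were compared per kilobase of annotated exon, and their order depends on this length. The annotated exons of AK1 cover 2667 bases, but its transcript with the longest coding sequence has 736. For AK6 the lengths are 2162 and 1648. Overlaps with other genes (33.5% of the exonic bases of AK1 and 24.5% of those of AK6) also make their counts uncertain. The order in SCC-15 shTTK libraries was AK6 (7.72 ± 0.462 CPM per kilobase), AK4P1 (5.79 ± 1.19), AK3 (5.72 ± 0.0529), AK4 (3.93 ± 0.263) and AK1 (3.52 ± 0.408). There AK4P1 overlapped AK3, and AK4 overlapped AK1. In SCC-15 shControl libraries the order was AK4P1 (11.0 ± 1.57 CPM per kilobase), AK4 (9.82 ± 0.211), AK6 (6.56 ± 0.0492), AK3 (6.13 ± 0.149) and AK1 (3.34 ± 0.496), with overlap only between AK4P1 and AK4. The order in CAL-27 shTTK libraries was AK4 (12.7 ± 0.118 CPM per kilobase), AK3 (11.8 ± 0.544), AK6 (5.77 ± 0.632), AK4P1 (5.34 ± 1.44) and AK1 (1.94 ± 0.0660), with overlap only between AK6 and AK4P1. In CAL-27 shControl libraries it was AK4 (22.4 ± 0.341 CPM per kilobase), AK3 (11.3 ± 0.249), AK4P1 (10.2 ± 1.04), AK6 (6.16 ± 0.164) and AK1 (2.24 ± 0.411), and no neighbours overlapped. The place of AK4P1 in these orders is uncertain. Of its 150-base runs, 42.6% also occur in AK4, and how many of its counts came from AK4 transcripts was not tested. Its length of 672 bases covers a copy of the coding sequence only, while that of AK4 covers all annotated exons.

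As a share of the summed level per kilobase of the 4 coding members, AK4 made up 18.8 ± 1.09% in SCC-15 shTTK and 38.0 ± 1.02% in SCC-15 shControl libraries. It made up 39.5 ± 1.16% in CAL-27 shTTK and 53.2 ± 0.175% in CAL-27 shControl libraries. By annotated exon length, AK6 held the highest share in SCC-15 after knockdown, with 36.9 ± 0.751% in shTTK and 25.4 ± 0.316% in shControl libraries. AK4P1 per kilobase overlapped AK4 in SCC-15 shControl libraries and lay above it in all SCC-15 shTTK libraries, while in CAL-27 it lay below AK4 in every library. These shares depend on the lengths used, describe RNA and do not measure enzyme.

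Related gene lists were counted to set the members beside their pathways. For all of these lists, the background is the share of all tested genes called. In SCC-15, 13.4% rose and 14.3% fell, and in CAL-27, 11.6% rose and 15.7% fell. Of 8 other nucleoside monophosphate kinases tested, 1 rose and 0 fell in SCC-15 (median log2 fold change 0.09), and 0 rose and 2 fell in CAL-27 (median 0.01). The 2 that fell in CAL-27 were DTYMK, the thymidylate kinase (-0.27 ± 0.049, edgeR adjusted p = 7.96e-06), and CMPK1, the UMP-CMP kinase (-0.13 ± 0.037, edgeR adjusted p = 0.00630). Of 6 nucleoside diphosphate kinases, 1 rose and 1 fell in SCC-15, and none of the 6 was called in CAL-27 (0 by edgeR). NME1, the main cytosolic enzyme of that family, fell in SCC-15 (-0.23 ± 0.051, edgeR adjusted p = 3.21e-04), although its neighbour NME2 is very similar to it and shares readthrough transcripts. All medians lay near those of all genes, 0 in SCC-15 and -0.01 in CAL-27.

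Of 18 genes of adenine nucleotide metabolism, 3 rose and 1 fell in SCC-15 (median 0.08), and 2 rose and 4 fell in CAL-27 (median 0.04). NT5E, the ecto-enzyme that turns AMP into adenosine, rose in SCC-15 (0.50 ± 0.086, edgeR adjusted p = 3.28e-06) and fell in CAL-27 (-1.13 ± 0.050, edgeR adjusted p = 3.37e-28). ADA, which deaminates adenosine, rose in both lines (0.27 ± 0.061 in SCC-15 and 0.79 ± 0.055 in CAL-27, edgeR adjusted p = 3.40e-04 and 7.34e-21). AMPD2, an AMP deaminase, fell in CAL-27 (-0.22 ± 0.047, edgeR adjusted p = 9.72e-05). Its value in SCC-15 was 0.01 ± 0.044.

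AMP-activated protein kinase is the sensor of the AMP that adenylate kinases help to set. Of 12 genes for its subunits and upstream kinases, 3 rose and 1 fell in SCC-15 (median 0.08), and 2 rose and 2 fell in CAL-27 (median -0.03). PRKAA2, a catalytic subunit, rose in SCC-15 (0.87 ± 0.15, edgeR adjusted p = 2.61e-06) and fell in CAL-27 (-0.36 ± 0.11, edgeR adjusted p = 0.0106). PRKAB2, a scaffold subunit, rose in CAL-27 (0.55 ± 0.076, edgeR adjusted p = 1.04e-08). CAMKK2, a kinase upstream of the complex, fell in SCC-15 (-0.25 ± 0.047, edgeR adjusted p = 1.52e-05).

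Of 13 creatine kinases and carriers of adenine nucleotides, 5 rose and 3 fell in SCC-15 (median 0.08), and 5 rose and 1 fell in CAL-27 (median 0.12). CKB, the brain-type cytosolic creatine kinase, rose in SCC-15 (0.11 ± 0.036, edgeR adjusted p = 0.0161) and in CAL-27 (0.90 ± 0.20, edgeR adjusted p = 2.97e-04). Its level was low in CAL-27, at 2.53 CPM in shTTK and 1.36 CPM in shControl libraries. In SCC-15 the means were 553 CPM in shTTK and 513 CPM in shControl libraries. SLC25A6, an ADP/ATP carrier of the inner mitochondrial membrane, rose in SCC-15 (0.09 ± 0.030, edgeR adjusted p = 0.0126) and in CAL-27 (0.13 ± 0.031, edgeR adjusted p = 6.51e-04). SLC25A23, a carrier of ATP-Mg and phosphate, fell in SCC-15 (-0.17 ± 0.042, edgeR adjusted p = 9.72e-04) and in CAL-27 (-0.18 ± 0.043, edgeR adjusted p = 4.62e-04). CKMT1A, the mitochondrial creatine kinase, was also called higher in both lines, but its near-identical copy CKMT1B makes that count uncertain.

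Since AK4 is hypoxia-inducible, 24 other hypoxia-inducible genes were counted, and those called went in both directions in each line. The part of hypoxia signalling in the fall of AK4 was not tested. In SCC-15, 6 rose and 6 fell (median -0.01), and in CAL-27, 8 rose and 4 fell (median 0.08). VEGFA, the vascular growth factor, rose in SCC-15 (0.28 ± 0.044, edgeR adjusted p = 3.53e-07) and fell in CAL-27 (-0.65 ± 0.035, edgeR adjusted p = 1.23e-26). ADM, the vasodilator peptide adrenomedullin, rose in SCC-15 (0.18 ± 0.040, edgeR adjusted p = 2.81e-04) and in CAL-27 (0.26 ± 0.038, edgeR adjusted p = 2.41e-08). SLC2A1, the glucose transporter, fell in SCC-15 (-0.19 ± 0.031, edgeR adjusted p = 7.08e-07), and PGK1, a glycolytic kinase, rose in CAL-27 (0.20 ± 0.029, edgeR adjusted p = 4.20e-08). No gene of the 6 lists fell as far as AK4 in SCC-15, and NT5E alone fell further than AK4 in CAL-27. AK4 was chosen for its fall and the list genes were not, so this standing sets AK4 apart from them only as a description.

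**Figure D5:**
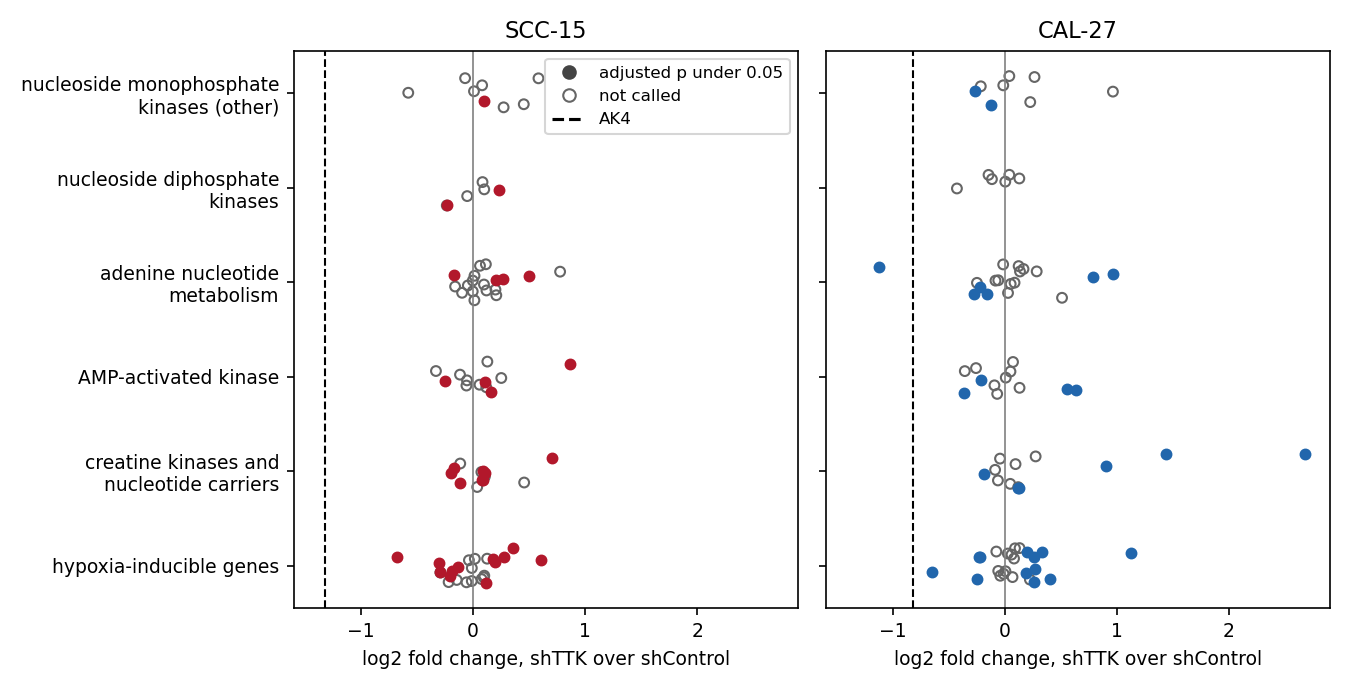
Each point is 1 tested gene of 6 related lists, placed by its log2 fold change of shTTK over shControl in SCC-15 (left) and CAL-27 (right), with filled points for an adjusted p under 0.05 and a dashed line at the value of AK4. The lists scatter around 0, and the AK4 line lies left of all points in SCC-15 (-1.32) and of all but NT5E in CAL-27 (-0.82). AK4 was chosen for its fall in both lines.

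The genes whose log2 CPM followed AK4 most closely over the 12 libraries were named as a description, out of 10832 genes with enough counts to rank. They were LASP1, an actin-binding scaffold protein (Pearson r = 0.993), MESD, a chaperone of LRP receptors (0.991), RTN4, a reticulon of the endoplasmic reticulum (0.990), PAK2, a kinase downstream of RAC and CDC42 (0.988), and TIMP2, an inhibitor of metalloproteinases (0.988). The libraries share their scaling and fall into 4 separate groups, so these values mostly reflect the order of the group means. LASP1 averaged 268 ± 10.1 CPM in SCC-15 shTTK against 428 ± 2.64 CPM in SCC-15 shControl libraries, and 533 ± 3.17 CPM in CAL-27 shTTK against 725 ± 14.1 CPM in CAL-27 shControl libraries. TIMP2 had changes nearest in size to those of AK4. It averaged 32.9 ± 0.950 CPM in SCC-15 shTTK against 83.5 ± 1.35 CPM in SCC-15 shControl libraries, and 86.0 ± 3.73 CPM in CAL-27 shTTK against 185 ± 8.54 CPM in CAL-27 shControl libraries. The log2 fold changes of these 5 genes ran from -1.34 to -0.33 in SCC-15 and from -1.11 to -0.16 in CAL-27.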

How the data were processed

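The authors deposited raw counts per gene, with no normalization, for 12 libraries (0 columns unmapped). The submitters' processing notes name STAR 2.7.7a, Trim Galore 0.6.6, featureCounts 2.0.1 and the build hg38. Not given in the sources used here are the strand setting, the annotation release and the treatment of multi-mapping reads. Of 58735 lines, 1568 repeat a symbol and were kept apart. Each member has 1 line.

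edgeR 4.0.16 (R 4.3.3, limma 3.58.1) fitted a robust quasi-likelihood model with 4 group means to genes passing filterByExpr, with TMM scaling. Two-sided p-values were adjusted by Benjamini-Hochberg over all 16946 genes, and an adjusted p under 0.05 was a call. The steps were tested on simulated data. Coordinates and transcript sequences come from GENCODE 29 on GRCh38. Levels per kilobase use the union of annotated exons.

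Members and gene lists were chosen with earlier results of these data known. Named list genes are those with the lowest adjusted p in either line. Genes most like AK4 are the 5 highest Pearson r among genes of at least 5 CPM on average. Some genes that these rules take are not reported here. Alternatives were RLE, DESeq2 1.42.0, limma-voom, other filters, each line alone, the replicate block, summed copies and each library left out.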

Additional observations from a re-analysis of the deposited data

Results flagged for a closer look

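The change of AK4 differed between the lines by the test of the difference itself. Its log2 fold change in SCC-15 minus that in CAL-27 was -0.50 (SE 0.066, edgeR adjusted p = 3.69e-09). This difference is made of the same contrasts by which AK4 was chosen. All 3 shTTK libraries lay below all 3 shControl libraries in both lines, which adds no support, since AK4 was chosen for that fall. Over the alternatives the difference lay between -0.55 and -0.46, with adjusted p from 1.78e-11 to 2.13e-07.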

How the results depend on the processing

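Of 417 values for the 5 genes under 22 alternatives, 398 kept their direction, their side of the threshold and, where untested, their size. The 2 that add AK4P3 or leave out both SCC-15 libraries numbered 1 were chosen after seeing the data. AK6 in SCC-15 passed with RLE (0.25, adjusted p = 0.0491) and with each line alone (0.24, adjusted p = 0.0440), and over single left-out libraries it ran from 0.20 to 0.28. Summed with TAF9, which holds most of those counts, AK6 was 0.021 in SCC-15 (edgeR adjusted p = 0.770), 0.074 for the difference between lines (edgeR adjusted p = 0.422) and 0.64 between control lines (edgeR adjusted p = 4.86e-23). Without the SCC-15 libraries numbered 1, AK4P1 was -0.66 in SCC-15 and -0.0079 between control lines. Over single left-out libraries, AK4P1 ran from -0.011 to 0.18 between control lines and from -0.15 to 0.23 for the difference between lines, AK6 in CAL-27 from -0.14 to 0.010, AK1 in SCC-15 from -0.028 to 0.18 and in CAL-27 from -0.34 to -0.059, AK3 in CAL-27 from 0.036 to 0.087, and AK4 in SCC-15 from -1.38 to -1.28. The cause of these shifts was not tested. No count of called genes moved by over 1.5 times.

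Replicate numbers did not pair the samples: deviations of same-numbered libraries correlated at -0.020 to 0.034. With the replicate block, AK4 was -1.32 in SCC-15 and -0.82 in CAL-27, AK6 in SCC-15 had an adjusted p of 0.0667, and no call changed. Genes called in SCC-15 were then 2243 higher and 2393 lower, and in CAL-27 1947 higher and 2615 lower. Depth limits AK4P1 and AK1 most, with 46 to 151 and 78 to 180 counts per library.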
